A study of Homo sapiens with 4 samples.

Results

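The genes of the mitochondrial genome are described here with and without CPYPP in 2 lines, MDA-MB-231 (breast cancer) and MDA-MB-435 (labelled as melanoma). They are the genes whose chromosome is given as MT in the deposited count table, which makes 37 of its 61806 genes: 13 mRNA genes, 2 rRNA genes and 22 tRNA genes. RNA was taken from either line as a control and after 10 µM CPYPP, a small-molecule inhibitor, for 6 h. The study asked how CPYPP alters gene expression in cells that it drives into paraptosis, a form of cell death with swollen, vacuolated cytoplasm. The 4 groups, all labelled wild type, were MDA-MB-231 control, MDA-MB-231 CPYPP, MDA-MB-435 control and MDA-MB-435 CPYPP, with 1 library in each. Nothing gives a second culture of any group, and the text on culture and treatment speaks only of MDA-MB-435 for all 4 samples.

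Human mitochondria keep a small circular genome that encodes core subunits of respiratory chain complexes I, III and IV and of the ATP synthase (complex V), together with the rRNAs and tRNAs needed to translate them. Both strands are copied into long precursors, from which the tRNAs are cut out, and this cutting frees most of the mRNAs and rRNAs that lie between them. Most of the released mRNAs and the rRNAs carry short A tails, and in some mRNAs the tail supplies the missing bases of the stop codon. The enzymes for transcription, cutting, tailing and translation and most respiratory chain subunits are encoded in the nucleus.

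The sequences at the gene borders show how closely the genes are packed. They were taken from the GENCODE transcripts (GRCh38), whose positions for all 37 genes were those of the count table, and each is written 5′ to 3′ on the strand of its gene. The first set holds the last 30 bases of each rRNA gene with the tRNA gene that follows it without a gap, in capitals, since the rRNAs moved in the opposite direction from the mRNAs and the second of these tRNAs, MT-TL1, parts MT-RNR2 from MT-ND1.
MT-RNR1 end with MT-TV (chrM:1572-1670, plus strand): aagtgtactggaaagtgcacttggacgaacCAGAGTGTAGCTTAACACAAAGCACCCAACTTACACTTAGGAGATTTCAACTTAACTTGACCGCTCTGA
MT-RNR2 end with MT-TL1 (chrM:3200-3304, plus strand): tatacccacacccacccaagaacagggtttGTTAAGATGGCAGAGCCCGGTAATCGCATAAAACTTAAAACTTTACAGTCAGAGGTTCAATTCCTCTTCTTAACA

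The second set gives the last 18 bases of the 13 mRNA genes, since an A tail can supply the missing bases of a stop codon. A gene end need not be the end of the message, as MT-ATP8 and MT-ND4L run into the next gene. Capitals mark the stop codon, or the part of it that the gene encodes. In 6 genes only T or TA is encoded.
MT-ND1 (chrM:4245-4262, plus strand): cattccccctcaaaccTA
MT-ND2 (chrM:5494-5511, plus strand): ttatactaataatcttaT
MT-CO1 (chrM:7428-7445, plus strand): gtatacataaaatctAGA
MT-CO2 (chrM:8252-8269, plus strand): cccgtatttaccctaTAG
MT-ATP8 (chrM:8555-8572, plus strand): ttgcccccacaatccTAG
MT-ATP6 (chrM:9190-9207, plus strand): ctgcacgacaacacaTAA
MT-CO3 (chrM:9973-9990, plus strand): tctattgatgagggtctT
MT-ND3 (chrM:10387-10404, plus strand): gattagactgaaccgaaT
MT-ND4L (chrM:10749-10766, plus strand): aacctactccaatgcTAA
MT-ND4 (chrM:12120-12137, plus strand): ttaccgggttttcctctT
MT-ND5 (chrM:14131-14148, plus strand): ctactcctaatcacaTAA
MT-ND6 (chrM:14149-14166, minus strand): attgctcgggggaatAGG
MT-CYB (chrM:15870-15887, plus strand): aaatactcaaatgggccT

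The third set shows the longest 2 of the 5 overlaps between neighbouring genes and the tRNA gene that held nearly all tRNA counts. The other overlaps are 1 base of MT-ATP6 and MT-CO3, 3 bases of MT-TI and MT-TQ and 1 base of MT-TC and MT-TY. In the stretch shared by MT-ATP8 and MT-ATP6, capitals mark the start codon of MT-ATP6 and the stop codon of MT-ATP8. In that of MT-ND4L and MT-ND4, capitals mark the shared bases, and in MT-TP they mark the anticodon.
MT-ATP8 and MT-ATP6 overlap (chrM:8527-8572, plus strand): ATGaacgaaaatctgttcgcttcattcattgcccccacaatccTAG
MT-ND4L and MT-ND4 overlap (chrM:10748-10778, plus strand): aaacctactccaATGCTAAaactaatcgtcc
MT-TP (chrM:15956-16023, minus strand): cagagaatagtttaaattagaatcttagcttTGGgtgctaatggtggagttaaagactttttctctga

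The 4 libraries held between 17196385 and 22663954 counts. The melanocyte gene SOX10 had 3031 counts in the MDA-MB-435 control and 707 after CPYPP, beside 0 and 1 in MDA-MB-231, whereas the epithelial keratin KRT19 had 3953 and 2225 counts in MDA-MB-231 cells and 4 and 0 in MDA-MB-435 cells. The pigment cell genes MLANA, PMEL and TYR stayed between 0 and 34 counts in every library. The epithelial markers KRT8 and KRT18 were not limited to 1 line: KRT8 had 12813 and 9549 counts for MDA-MB-231 beside 522 and 310 for MDA-MB-435, and KRT18 had 8212 and 5653 beside 5740 and 4077. The melanoma label thus rests here on SOX10 and DCT (658 and 464 counts in MDA-MB-435), while MITF was counted in both lines. The leukocyte marker PTPRC had at most 36 counts and the endothelial marker PECAM1 at most 40. Few counts fell on nuclear RNAs without a poly(A) tail. RN7SL1, the RNA of the signal recognition particle, had 27 to 63 counts per library and the other members of that list 0 to 6. How reads that map to several copies were counted is not given in the sources used here, so these counts do not settle how much of such RNA was present.

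Mitochondrial genes took a smaller share of the library after CPYPP in both lines, because the large mRNA share shrank while the small rRNA share grew. All 37 genes together made up 5.34% of the MDA-MB-231 control library (95% Clopper-Pearson interval 5.333 to 5.351) and 4.21% after CPYPP (4.197 to 4.216). In MDA-MB-435 they made up 4.73% (4.717 to 4.734) and 3.55% (3.544 to 3.560). These intervals, and all those on folds in the text, cover counting error only and not the spread between cultures.

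The 13 mRNA genes accounted for 4.55% of the MDA-MB-231 control library and 3.02% of its CPYPP library, and for 4.19% and 2.72% in MDA-MB-435. The 2 rRNA genes went the other way, from 0.788% to 1.17% in MDA-MB-231 and from 0.530% to 0.824% in MDA-MB-435. Among mitochondrial counts alone, the rRNA share was 14.8% in the control and 27.9% in the CPYPP library of MDA-MB-231, against 11.2% and 23.2% for MDA-MB-435, so that 0.173 and 0.388 rRNA counts fell on each mRNA count in the former and 0.127 and 0.303 in the latter. This ratio grew by 2.24 and 2.39 times, and because both numbers come from the same library it does not depend on the scaling. It does depend on how well rRNA and mRNA were each captured on oligo(dT), which was not tested. In bulk RNA, fewer mitochondria per cell and less RNA per mitochondrion cannot be told apart, and a relative count gives no amount per cell.

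**Figure D1:**
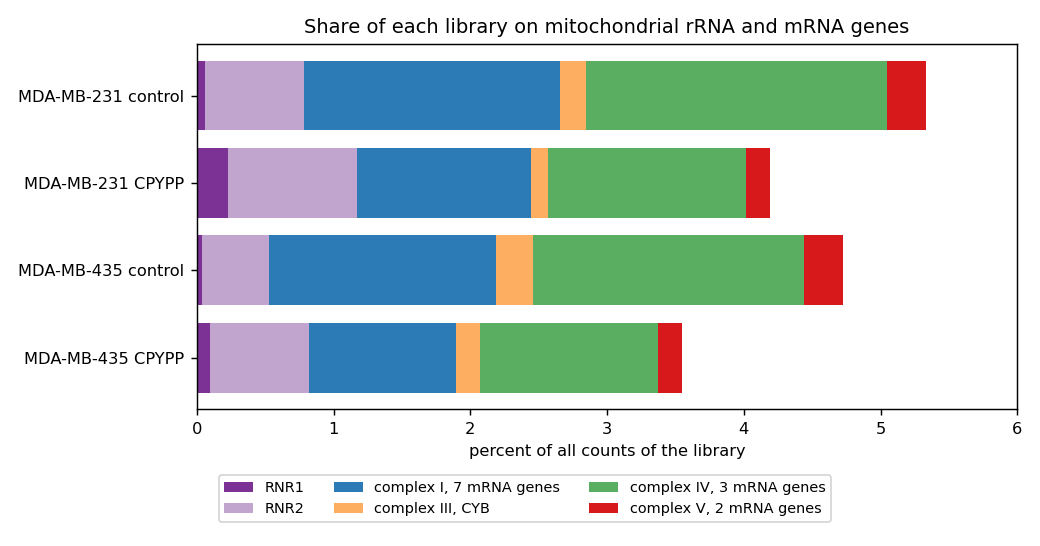
Percent of all counts of each library (x axis) on the mitochondrial rRNA genes and on the mRNA genes of each complex, 1 bar per library; the tRNA genes, at about 0.01% or less, are not drawn. In both lines the CPYPP bar is shorter than the control bar, with longer RNR1 and RNR2 segments and shorter segments for every complex.

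Scaled with TMM factors from edgeR, the summed mRNA counts after CPYPP were 0.693 times the control in MDA-MB-231 (0.6910 to 0.6957) and 0.684 times in MDA-MB-435 (0.6813 to 0.6858). The summed rRNA counts were 1.55 times (1.541 to 1.561) and 1.64 times (1.623 to 1.648) the control. A test was possible only for the change common to the lines, with edgeR's quasi-likelihood test over the 4 libraries, the cell line as a block and Benjamini-Hochberg adjustment over 16801 genes. Only the 2 lines then repeat the treatment, with 1 residual degree of freedom per gene, so that each p rests mostly on the spread that edgeR shares across genes (9.29 prior degrees of freedom). In this test 4.39% of all genes were called higher after CPYPP and 2.85% lower. Of the mitochondrial genes, 16 were tested, and the calls were 2 of 2 rRNA genes higher, 10 of 13 mRNA genes lower and MT-TP not called. With total counts in place of TMM the calls over all genes turned from 737 higher and 478 lower to 843 higher and 1087 lower, while the calls on these rRNA genes remained. Without the cell line as a block no gene was called, with 167 at an unadjusted p under 0.05, and with DESeq2 2124 were. Below, counts are raw and are given for the control first and then for CPYPP, MDA-MB-231 before MDA-MB-435, and folds are corrected for depth.

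MT-RNR1, the rRNA of the small mitochondrial ribosomal subunit, showed the largest change of the mitochondrial genes. It had 14012 counts in the MDA-MB-231 control and 39658 after CPYPP, and 9230 and 18332 in MDA-MB-435. Each CPYPP library was above both controls. The normalised fold was 3.84 (3.76 to 3.91) in MDA-MB-231 and 2.43 (2.37 to 2.49) in MDA-MB-435, and MT-RNR1 rose by 1.61 ± 0.154 (SE) on the log2 scale in the common test (edgeR, adjusted p = 0.000270).

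MT-RNR2, the rRNA of the large subunit, had far more counts and changed less. In MDA-MB-231 its counts were 162188 in the control and 161946 in the shallower CPYPP library, and 110918 and 142245 in MDA-MB-435. The normalised folds were 1.35 (1.34 to 1.36) and 1.57 (1.56 to 1.58), and the common change was 0.54 ± 0.119 (SE, edgeR adjusted p = 0.0229). Per kb of gene length, MT-RNR2 in the MDA-MB-231 CPYPP library reached 6284 normalised counts per 1000000 counts (CPM), above the 6172 of MT-CO2, the highest mRNA there, whereas in the control it stood at 4644 against 8720.

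The counts of the rRNA genes therefore did not keep a fixed proportion, although the genes are neighbours on the same strand with only MT-TV between them. There were 0.0864 MT-RNR1 counts for each MT-RNR2 count in the MDA-MB-231 control and 0.245 after CPYPP, a change of 2.83 times, against 0.0832 and 0.129 in MDA-MB-435, a change of 1.55 times. The controls of both lines were close to each other and the CPYPP libraries were not. Whether the change differs between the lines could not be tested with 1 library per condition. The libraries were captured on oligo(dT), so the counts of either rRNA depend on its A tail and capture as well as its amount. These were not told apart.

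**Figure D2:**
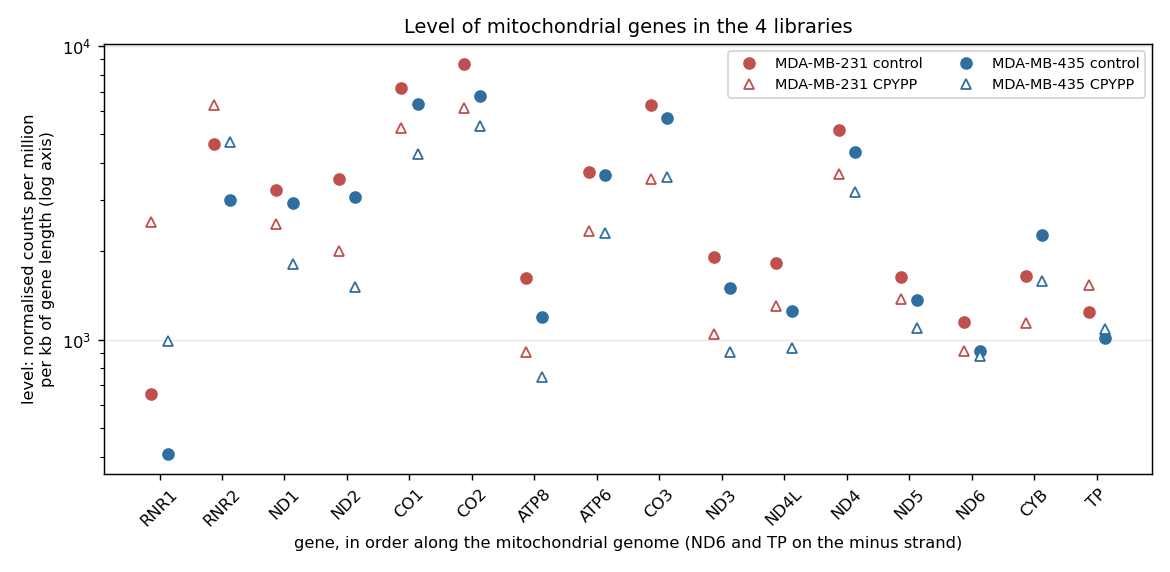
Level of the 2 rRNA genes, the 13 mRNA genes and MT-TP in gene order (x axis) as normalised CPM per kb of gene length (y axis, log scale), filled circles for control and open triangles for CPYPP libraries. Triangles lie above the circles of the same line for RNR1, RNR2 and TP and below them for each of the 13 mRNA genes.

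The 13 mRNA genes kept much the same order of level in every library. MT-CO2 and MT-CO1 were the highest per kb in all 4, at 8720 and 7177 normalised CPM per kb in the MDA-MB-231 control and 6757 and 6363 in the MDA-MB-435 control, followed, in either order, by MT-CO3 and MT-ND4. MT-ND6 was the lowest in both controls, at 1151 and 919, and MT-ATP8 in both CPYPP libraries, at 909 and 749. The highest mRNA exceeded the lowest by 6.79 to 7.58 times within a library. With 1 library per group the order of neighbours has no replicate spread, and several stood close, such as MT-CYB, MT-ND5 and MT-ATP8 at 1652, 1634 and 1617 in the MDA-MB-231 control.

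Every mRNA gene was lower after CPYPP in each line. The median log2 fold of the 13 was −0.50 in MDA-MB-231, from −0.87 for MT-ND3 to −0.24 for MT-ND5, and −0.57 in MDA-MB-435, from −1.02 for MT-ND2 to −0.07 for MT-ND6. Over all genes with at least 10 counts in a library of the line the medians were −0.02 and −0.09. Past 1.5-fold there were 5 mRNA genes lower and none higher in MDA-MB-231, where 12.1% of all genes were lower by that much and 12% higher, and 6 lower and none higher in MDA-MB-435, where 20.7% were lower and 8.69% higher. By the same measure 1 rRNA gene was higher in MDA-MB-231 cells and 2 in MDA-MB-435 cells. Across the 13 genes the log2 folds of the lines, which share no library, gave 0.72 for Pearson r and 0.68 for the Spearman coefficient, as a description since genes of 1 genome are not independent.

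**Figure D3:**
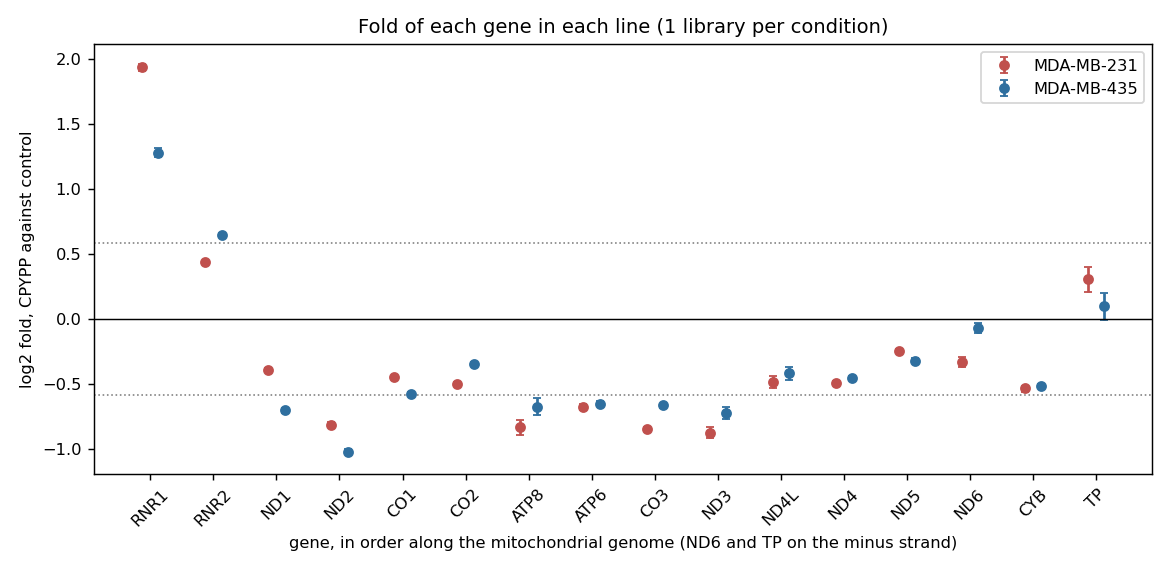
Log2 fold of normalised counts, CPYPP against control (y axis), for 16 mitochondrial genes in gene order (x axis), with 95% Clopper-Pearson intervals for counting error that are mostly smaller than the points; dotted lines mark 1.5-fold. RNR1 and RNR2 lie above 0 and all 13 mRNA genes below it in both lines, with ND6 of MDA-MB-435 nearest to 0 at −0.07.

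Complex I, NADH dehydrogenase, takes 7 of the mRNA genes, which encode core subunits of its membrane arm. MT-ND2 had the largest common change of them, although in MDA-MB-231 the fold of MT-ND3 was lower still. In MDA-MB-231 it fell from 82310 to 34662 counts, a normalised fold of 0.571 (0.564 to 0.578). The counts of MDA-MB-435 fell from 75638 to 30547, a fold of 0.494 (0.488 to 0.501). It was the only mRNA gene past 2-fold in a line, with a common log2 change of −0.91 ± 0.117 (SE, edgeR adjusted p = 0.00161).

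MT-ND3 fell from 14796 to 5985 counts in MDA-MB-231 cells and from 12283 to 6106 in MDA-MB-435 cells, and both CPYPP libraries stood below both controls. Its folds were 0.548 and 0.608 and its common log2 change was −0.79 ± 0.111 (SE, edgeR adjusted p = 0.00254). MT-ND1 fell from 69269 to 39076 and from 66399 to 33410 counts, with folds of 0.764 and 0.616 and a common log2 change of −0.54 ± 0.122 (SE, adjusted p = 0.0250).

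MT-ND4L and MT-ND4, whose reading frames overlap, fell by nearly the same amount. MT-ND4L had 12104 and 6389 counts in MDA-MB-231 cells and 8804 and 5402 in MDA-MB-435 cells, and MT-ND4 had 159256 and 83731, then 142638 and 85278. The folds of MDA-MB-231 were 0.715 and 0.713, and those of MDA-MB-435 were 0.751 and 0.732. Their common log2 changes were −0.45 ± 0.109 and −0.47 ± 0.114 (SE), each with an adjusted p of 0.0341 in edgeR.

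MT-ND5 and MT-ND6, which lie side by side on opposite strands, were the complex I genes that did not pass the test, although MT-ND5 did with total counts (adjusted p = 0.0421), with no filter on low counts (0.0227) and with DESeq2 (3.07e-06). MT-ND5 had 66337 and 41318 counts in MDA-MB-231 cells and 58554 and 38434 in MDA-MB-435 cells, folds of 0.844 and 0.803 and a common log2 change of −0.28 ± 0.112 (SE, edgeR adjusted p = 0.177). MT-ND6 had 13537 and 7956 counts, then 11426 and 8921, folds of 0.796 (0.775 to 0.819) and 0.955 (0.929 to 0.982) and a common log2 change of −0.20 ± 0.116 (SE, adjusted p = 0.384). For both genes each CPYPP library was below its own control. Summed over complex I, the fold was 0.711 for MDA-MB-231 and 0.678 for MDA-MB-435.

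Complex IV, cytochrome c oxidase, has its catalytic core encoded by MT-CO1, MT-CO2 and MT-CO3, which held 48.4% of mitochondrial mRNA counts in the MDA-MB-231 control and 47.2% in the MDA-MB-435 control. MT-CO1, the most counted mitochondrial gene in the controls, fell from 247917 to 134533 and from 232442 to 128361 counts, with folds of 0.735 and 0.676 and a common log2 change of −0.50 ± 0.117 (SE, edgeR adjusted p = 0.0282). MT-CO3 fell from 110544 to 45529 and from 105886 to 54580 counts, with folds of 0.558 and 0.631 and a common log2 change of −0.75 ± 0.116 (SE, adjusted p = 0.00400).

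MT-CO2 missed the threshold narrowly. It had 133608 and 69783 counts in MDA-MB-231 cells and 109504 and 70552 in MDA-MB-435 cells, folds of 0.708 and 0.788 and a common log2 change of −0.42 ± 0.116 (SE, edgeR adjusted p = 0.0557). Under 5 of the alternatives it passed, among them total counts (adjusted p = 0.00411). The complex IV sum had folds of 0.688 and 0.693.

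Complex V, the ATP synthase, takes MT-ATP8 and MT-ATP6, which share 46 bases, 22.2% of MT-ATP8 and 6.75% of MT-ATP6. MT-ATP8 fell from 7496 to 3110 counts in MDA-MB-231 cells and from 5853 to 3003 in MDA-MB-435 cells, with folds of 0.562 and 0.628 and a common log2 change of −0.75 ± 0.110 (SE, edgeR adjusted p = 0.00309). MT-ATP6, which encodes the subunit through which protons pass, fell from 56985 to 26401 and from 58538 to 30505 counts, with folds of 0.628 and 0.638 and a common log2 change of −0.66 ± 0.111 (SE, adjusted p = 0.00643). How reads in the shared bases were counted is not given in the sources used here. Complex V had the lowest summed fold of the complexes in both lines, 0.620 for MDA-MB-231 and 0.637 for MDA-MB-435.

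Complex III has MT-CYB, cytochrome b, as its sole mitochondrial subunit. MT-CYB fell from 42229 to 21533 counts in MDA-MB-231 cells and from 61280 to 35126 in MDA-MB-435 cells, with folds of 0.691 and 0.701 and a common log2 change of −0.52 ± 0.111 (SE, edgeR adjusted p = 0.0196). The shares of mitochondrial mRNA counts by complex moved little. In MDA-MB-231 they were 41.1% and 42.1% for complex I, 4.15% and 4.14% for III, 48.4% and 48.0% for IV and 6.34% and 5.68% for V, in the control and the CPYPP library. In MDA-MB-435 they were 39.6% and 39.2%, 6.46% and 6.62%, 47.2% and 47.8%, and 6.78% and 6.32%.

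By strand, 12 of the mRNA genes are read from the plus strand and MT-ND6 from the minus strand, and their base makeup differs accordingly. G made up 35.6% of MT-ND6 and C 7.05%, while among the other 12 mRNA genes G ranged from 6.28% in MT-ATP8 to 16.2% in MT-CO1. The summed counts of the 12 had folds of 0.692 (0.6896 to 0.6943) in MDA-MB-231 and 0.680 (0.6779 to 0.6825) in MDA-MB-435, below those of MT-ND6 in each line. Per count of the other 12, MT-ND6 had 0.0135 counts in the MDA-MB-231 control and 0.0155 after CPYPP, 1.15 times as many, and 0.0122 and 0.0171 in MDA-MB-435, 1.40 times as many. The strand setting of the counting is not given in the sources used here, so reads of MT-ND6 and reads of the opposite strand at that place cannot be told apart. Counts of MT-ND6 and of the other 12 also depend on how well each was captured on oligo(dT), which was not tested.

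The tRNA genes were almost uncounted, which limits what these libraries say of them. Of 22, 18 had no count in any library and 3 (MT-TF, MT-TC and MT-TE) had at most 6, whereas MT-TP, the tRNA for proline, held 99.5% to 99.8% of all tRNA counts. The 22 genes are 59 to 75 bases long, and MT-TP is the last gene of the table's map. It had 1892 and 1725 counts in MDA-MB-231 cells and 1633 and 1433 in MDA-MB-435 cells. The normalised folds were 1.24 (1.16 to 1.32) and 1.07 (1.000 to 1.15), and its common log2 change of 0.20 ± 0.118 (SE) was not called (edgeR adjusted p = 0.372). It was higher per normalised count in each CPYPP library than in its own control, by less than the rRNA genes.

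At the border printed above, where MT-TL1 separates MT-RNR2 from MT-ND1, neighbouring plus-strand genes went in opposite directions. MT-RNR2 counts per MT-ND1 count were 2.34 in the MDA-MB-231 control and 4.14 after CPYPP, a change of 1.77 times, and 1.67 and 4.26 in MDA-MB-435, a change of 2.55 times. For MT-RNR1 the same ratio went from 0.202 to 1.01 and from 0.139 to 0.549. Both ratios were higher in each CPYPP library than in either control.

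Downstream of that border, distance along the genome had no common relation to the change. Across the 12 plus-strand mRNA genes, Pearson r and the Spearman coefficient of the log2 fold against gene order were 0.18 and 0.01 for MDA-MB-231, and 0.56 and 0.55 for MDA-MB-435. Against log2 gene length they were 0.57 and 0.57 for MDA-MB-231, then 0.16 and 0.31 for MDA-MB-435, and against the log2 control level per kb they lay between −0.01 and 0.10 in both lines. These values describe 12 genes that share 4 libraries. Levels per kb declined weakly with gene order in every library, with a Pearson r of −0.27 to −0.47.

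Split by the printed gene ends, the 6 mRNA genes that encode only part of a stop codon were all called lower, with common log2 changes from −0.91 to −0.47 and a median of −0.65. Of the 7 with a whole stop codon 4 were called lower, with changes from −0.75 to −0.20 and a median of −0.45. The ranges overlap. The longest run of A was 6 bases in MT-RNR1 and 7 in MT-RNR2. In the mRNA genes it was 3 (MT-ND4L and MT-ND6) to 8 (MT-ND5), so the rRNA genes did not stand apart in this feature. In A content, at 33.0% and 35.1%, they were above every mRNA gene but MT-ATP8 (38.6%). The other mRNA genes had 19.6% (MT-ND6) to 31.3% (MT-ND2).

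Between the lines, a smaller share of mitochondrial mRNA genes than of all genes was called higher in MDA-MB-435. The share called lower was near that of all genes. In the line term of the same fit, with treatment as a block, 30.5% of all genes were called higher in MDA-MB-435 and 32.4% lower. Of the 13 mRNA genes 1 was called higher in MDA-MB-435 and 5 lower, beside both rRNA genes and MT-TP lower. These 6 mRNA calls became 3 with total counts or with upper-quartile scaling. MT-CYB was the one that was higher, by 0.47 ± 0.111 (SE) on the log2 scale (edgeR adjusted p = 0.00382), and in the controls its normalised level in MDA-MB-435 was 1.37 times that of MDA-MB-231 (1.36 to 1.39). MT-RNR1 was lower by a log2 difference of −1.01 ± 0.152 (SE, adjusted p = 0.000201), with a control ratio of 0.623, and MT-RNR2 by −0.52 ± 0.119 (adjusted p = 0.00309), with a control ratio of 0.647.

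The mRNA genes called lower in MDA-MB-435 were MT-ND4L, MT-ATP8, MT-ND2, MT-CO2 and MT-ND5. MT-ND4L had the largest difference of these, −0.51 ± 0.109 (SE, edgeR adjusted p = 0.00213), followed by MT-ATP8 at −0.36 ± 0.110 (adjusted p = 0.0151). MT-ND2, MT-CO2 and MT-ND5 differed by −0.31, −0.29 and −0.30 with adjusted p of 0.0398, 0.0484 and 0.0390, and each lost its call with total counts. MT-TP differed by −0.39 ± 0.118 (adjusted p = 0.0134). MT-ATP6 and MT-CO3, with differences of −0.03 and −0.05, stood closest to equality, and that of MT-ATP6 turned to 0.02 with total counts.

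The nuclear-encoded subunits of the same complexes stayed closer to their control level than the mitochondrial ones. Of 72 such genes none was past 1.5-fold in either line, and none was called in the common test, where the smallest adjusted p was 0.152 (edgeR). Their median log2 fold was −0.13 for MDA-MB-231 and 0.03 for MDA-MB-435, near the −0.02 and −0.09 of all genes. They ranged from −0.52 to 0.34 and from −0.34 to 0.34.

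The gap held in each complex. For complex I the median log2 fold was −0.13 over 38 nuclear genes and −0.48 over 7 mitochondrial genes of MDA-MB-231, then 0.04 and −0.45 for MDA-MB-435. For complex III it was −0.09 over 9 nuclear genes against −0.53 for MT-CYB, and −0.05 against −0.51. For complex IV, over 10 nuclear and 3 mitochondrial genes, it was −0.08 and −0.50, then 0.08 and −0.57. For complex V, over 15 and 2 genes, it was −0.21 and −0.75, then 0.02 and −0.66. In complexes III, IV and V every mitochondrial gene lay below every nuclear gene in either line, while in complex I the ranges overlapped in both lines.

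**Figure D4:**
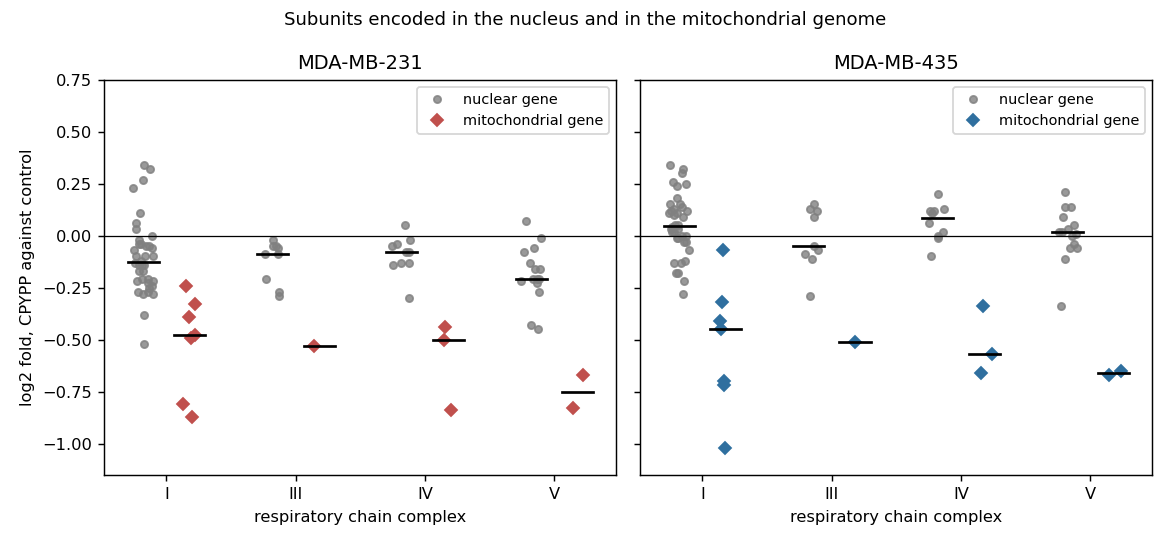
Log2 fold, CPYPP against control (y axis), of respiratory chain subunits by complex (x axis), grey circles for nuclear and coloured diamonds for mitochondrial genes, with a bar at each median and 1 panel per line. Nuclear medians lie between −0.21 and 0.08 and mitochondrial medians between −0.75 and −0.45.

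Nuclear genes that transcribe, process, tail and translate mitochondrial RNA mostly stayed near their control level. Of 55 such genes in the table, 54 had enough counts in MDA-MB-231, of which 1 was past 1.5-fold higher and 5 lower, with a median log2 fold of −0.12. All 55 did in MDA-MB-435, of which 1 was higher and 7 lower, with a median of 0.00. These counts lower are below the 12.1% and 20.7% of all genes, and those higher below the 12% and 8.69%. In the common test 1 was called higher and 3 lower, which is 4 of 55 beside the 4.39% and 2.85% of all genes.

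The gene called higher was FASTKD5, which is needed to mature mitochondrial mRNAs whose ends are not set by a tRNA. Its counts rose from 775 to 1123 in MDA-MB-231 cells and from 1149 to 1672 in MDA-MB-435 cells, folds of 1.96 (1.79 to 2.15) and 1.78 (1.65 to 1.92), with a common log2 change of 0.90 ± 0.128 (SE, edgeR adjusted p = 0.00266). Both CPYPP libraries were above their controls although the CPYPP libraries were the shallower. The other processing genes included TRMT10C, a subunit of mitochondrial RNase P, at 0.03 in both lines, and ELAC2, which cuts the 3′ ends of tRNAs, at −0.26 and −0.20 on the log2 scale.

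MRM1, which methylates the rRNA of the large subunit, had the lowest common change of the list. It fell from 183 to 79 counts in MDA-MB-231 cells and from 373 to 129 in MDA-MB-435 cells, folds of 0.585 (0.444 to 0.766) and 0.423 (0.344 to 0.518), with a common log2 change of −1.02 ± 0.237 (SE, edgeR adjusted p = 0.0284). POLG2, the accessory subunit of the mitochondrial DNA polymerase, fell from 738 to 340 and from 468 to 228 counts, folds of 0.624 and 0.596, with a common change of −0.71 ± 0.160 (SE, adjusted p = 0.0251). PPARGC1A, a coactivator of mitochondrial genes, was past 1.5-fold lower in both lines, from 29 to 11 and from 129 to 59 counts, but was not called (adjusted p = 0.239).

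POLRMT, the RNA polymerase of mitochondria, was the other gene called lower, and it is named here after its values were seen. It had 462 and 253 counts in MDA-MB-231 cells and 1322 and 641 in MDA-MB-435 cells, log2 folds of −0.43 and −0.75 and a common change of −0.60 ± 0.154 (SE, edgeR adjusted p = 0.0420). Of the other 10 transcription genes none was called. TFAM, which packages the genome and starts transcription, stood at 0.21 in both lines on the log2 scale, and MTERF1, which binds within MT-TL1, at 0.16 and −0.16. Of the 7 genes for stability, tailing and decay none was past 1.5-fold, among them LRPPRC, which stabilises mitochondrial mRNAs, at 0.11 and 0.30, and the poly(A) polymerase MTPAP at 0.06 and 0.45.

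**Figure D5:**
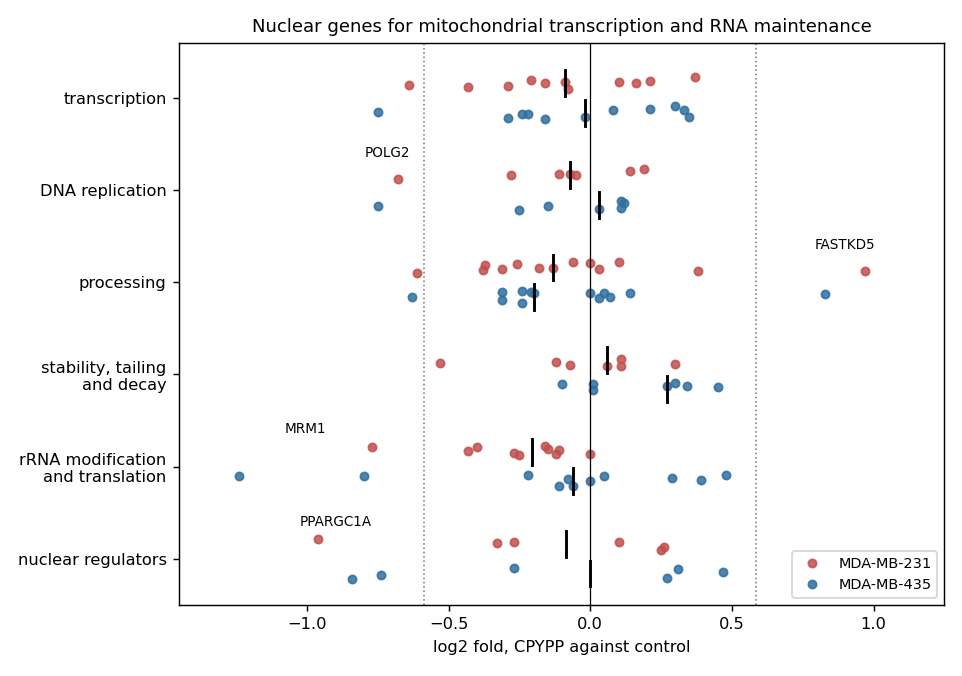
Log2 fold, CPYPP against control (x axis), of nuclear genes for mitochondrial transcription and RNA maintenance by role (y axis), 1 point per gene and line, with a bar at each median and dotted lines at 1.5-fold. FASTKD5 lies past the upper line and POLG2, MRM1 and PPARGC1A past the lower line in both lines of cells.

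Copies of mitochondrial genes in the nuclear genome can share reads with the originals. The table names 402 of them, 8 with at least 10 counts in a library, and 3 in a row on chromosome 1 with at least 100, MTND2P28 (629640 to 630683), MTCO1P12 (631074 to 632616) and MTATP6P1 (633696 to 634376). MTND2P28 had 3076 and 1283 counts in MDA-MB-231 cells and 2980 and 1244 in MDA-MB-435 cells, and MTATP6P1 had 7966 and 3564, then 6073 and 3213. MTCO1P12 had 3622 and 1750 counts in MDA-MB-231 cells and 476 and 248 in MDA-MB-435 cells, the only one of the 3 that differed widely between the lines. Counts on the copies made up 11.9% to 12.3% of the sum of MT-ATP6 and its copies in MDA-MB-231 and 9.41% to 9.55% in MDA-MB-435, 3.59% to 3.91% for MT-ND2 and 0.196% to 1.44% for MT-CO1. For the other mRNA genes the copies made up at most 0.0460%. With the copies added, no log2 fold of a mitochondrial mRNA gene moved by more than 0.01, and each kept its sign. No copy of MT-RNR1 or MT-RNR2 was found by symbol, so the rRNA folds were not checked in this way.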

How the data were processed

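Poly(A) RNA captured on oligo(dT) beads and copied with random primers was sequenced by the authors, 1 library for each of 4 groups (MDA-MB-231 and MDA-MB-435, control and CPYPP). The deposited table holds raw counts per gene. The submitters' processing notes name cutadapt 1.9.1, HISAT2 2.2.1, HTSeq 0.6.1, DESeq2 and the build GRCh37.p13, whereas the positions in the table are those of GRCh38: of 58254 gene IDs shared with GENCODE release 29, 58196 overlapped the position there, and all 37 mitochondrial genes had the same start, end and strand. The strand setting and the rule for reads in overlapping genes are not given in the sources used here.

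From the counts, effective library sizes were computed with TMM (edgeR 4.0.16, R 4.3.3) on the 16801 genes that passed filterByExpr, with factors of 1.00, 0.961, 1.05 and 0.993 for the MDA-MB-231 control and CPYPP and the MDA-MB-435 control and CPYPP libraries. Library totals were 22359735, 17196385, 22663954 and 19489282. Within a line, folds of normalised counts are given for genes with at least 10 counts in a library, with 95% Clopper-Pearson intervals and counts under 3 set to 3, and no test, and the 1.5-fold limit is a description. The change common to the lines and the difference between the lines were tested with edgeR's quasi-likelihood test (cell line and treatment as terms), called at an adjusted p under 0.05. The p-values rest on 1 residual degree of freedom per gene and mostly on the spread that edgeR shares across genes. They do not measure the spread between cultures. On data simulated from these libraries with 200 changed genes among 17118, the common-effect fit recovered 95% of the 2-fold and 100% of the 4-fold changes with 10 false calls. There the changed genes were well counted and changed alike in both lines, and all genes had the same dispersion. Smaller changes, such as most of the mitochondrial ones, were not simulated, so these figures do not give the recovery or false calls in the real data. Levels per kb use the gene lengths of the table. No protein sequences were used.

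The mitochondrial genes and the gene lists were chosen with earlier results of these data known. All 13 mRNA and both rRNA genes are given with counts, tRNA genes where they had at least 10 counts, and genes of the nuclear lists where they were past 1.5-fold in the same direction in both lines. Nuclear copies were found by symbol (names such as MTND2P28). Alternatives were other scalings (total counts, DESeq2 1.42.0 size factors, upper quartile, nuclear genes only, and TMM over the whole table, which was added after seeing the data), no filter, no block, DESeq2's test and fold limits of 25% and of 2-fold.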

Additional observations from a re-analysis of the deposited data

How the results depend on the processing

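The direction of the mRNA and rRNA changes held under every scaling tried, with small shifts in size. With total counts, DESeq2 size factors, upper-quartile scaling and TMM over the whole table, the last added after seeing the data, the summed mRNA fold was 0.665, 0.685, 0.672 and 0.682 for MDA-MB-231, and 0.650, 0.696, 0.671 and 0.695 for MDA-MB-435. In the same order, the summed rRNA fold was 1.49, 1.53, 1.5 and 1.53 and then 1.55, 1.66, 1.61 and 1.66. With a limit of 25% in place of 1.5-fold, 12 mRNA genes of MDA-MB-231 and 11 of MDA-MB-435 were past it, all lower, beside 22.4% and 32.5% of all genes, and with 2-fold 0 and 1, beside 5.52% and 10.9%. The list for mitochondrial transcription and RNA maintenance had 15 genes past the 25% limit in each line, beside 44.7% and 50.4% of all genes in either direction, and 0 and 1 past 2-fold, beside 10.8% and 14.4%.

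In the common test, the 1215 calls over all genes became 1930 with total counts, 2001 with no filter on low counts and 2124 with DESeq2's Wald test, and 0 without the cell line as a block, where 167 genes had an unadjusted p under 0.05. Without that block 0 mRNA genes were called and 4 had an unadjusted p under 0.05, against 10 called in the fit with the block, and the adjusted p of both rRNA genes rose to 1.000. The calls among the mRNA genes for the difference between the lines went from 6 to 3 with total counts, 3 with upper-quartile scaling, 10 with no filter, 10 with DESeq2's test and 0 without the treatment as a block, where 0 had an unadjusted p under 0.05. The difference in MT-ATP6 changed sign, to 0.02 with total counts and 0.01 with upper-quartile scaling. The cause of these shifts was not tested, apart from the larger spread that leaving out the block brings by its construction.

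No replicate was left out, as each group has 1 library and 3 libraries leave no residual degree of freedom, and the spread between cultures is unknown. The cell line block pairs the control and CPYPP library of each line, and with 1 library per group there is no replicate number to pair by. Of the tRNA genes 18 had no count, for which the cause was not tested, and 3 counts, the limit that a count of 0 allows, are 0.127 to 0.181 normalised counts per 1000000 in these libraries.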
